A study of Mus musculus with 2 samples.

Results

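The miR-200 family of the mouse consists of 5 miRNA genes, Mir200b, Mir200a, Mir429, Mir200c and Mir141. They were picked by symbol from the 1973 miRNA genes counted in embryonic stomach, and all 5 were found in both count tables. The libraries were made from total RNA size selected below 30 nt and sequenced as microRNA-seq. Each came from stomachs of healthy B6NCrl mouse embryos at embryonic day 15.5, with males and females pooled. Biological replicate 1 held stomachs of 78 embryos and biological replicate 2 stomachs of 62 embryos. The pools form 1 group without a second condition, so the comparisons are between family members inside a library and between the pools. Sense counts of miRNA genes, the depth behind all values here, came to a total of 5988677 for replicate 1 and 6675498 for replicate 2.

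A miRNA is cut from the hairpin of a longer primary transcript, and its mature strand guides the silencing machinery to messenger RNAs that pair with its seed, the bases 2 to 8 of the strand. miR-200 miRNAs are a hallmark of epithelial cells. They repress the transcription factors Zeb1 and Zeb2, which themselves silence the miR-200 genes and epithelial genes such as the one for E-cadherin, so that the circuit helps to hold cells in an epithelial or a mesenchymal state. In the stomach the family is known from the epithelial lining, which at this stage overlies a thick wall of mesenchyme and muscle.

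The mature 3p strands, taken from RefSeq (GRCm38.p6, the same assembly as mm10), show what separates the family into 2 seed groups. The seed is in capitals and each strand is written 5′ to 3′.
miR-200b-3p: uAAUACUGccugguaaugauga
miR-200c-3p: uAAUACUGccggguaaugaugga
miR-429-3p: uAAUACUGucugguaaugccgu
miR-200a-3p: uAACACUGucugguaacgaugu
miR-141-3p: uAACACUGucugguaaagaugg
Counting from 1 at the 5′ end, the seed groups differ in the seed by the single substitution U4C, written from the group of miR-200b, miR-200c and miR-429 to the group of miR-200a and miR-141. Their seed-pairing words in a target are CAGUAUU for the group of 3 strands and CAGUGUU for the group of 2. Among 1738 mature mouse miRNAs in the RefSeq table, no strand outside the family carries either seed. Over the first 22 bases the 10 pairs of members differ at 2 to 5 positions. miR-200c-3p and miR-200b-3p differ by G11U and G22A, and miR-141-3p and miR-200a-3p by A17C and G22U. The first 16 bases of miR-141-3p and miR-200a-3p are identical, so a read cut to that length could not be assigned to either; how many such reads there were was not tested. Each full 3p strand occurs in 1 of 1005 mouse hairpins of the table, and the nearest strand outside the family differs from a member at 8 or more positions.

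The deposited counts are per gene and do not separate the arms of a hairpin. The hairpins of the most abundant gene of each cluster show what 1 gene count covers; the capitals mark the annotated 5p and 3p strands.
Mir429: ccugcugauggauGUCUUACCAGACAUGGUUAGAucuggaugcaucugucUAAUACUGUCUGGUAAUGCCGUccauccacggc
Mir200c: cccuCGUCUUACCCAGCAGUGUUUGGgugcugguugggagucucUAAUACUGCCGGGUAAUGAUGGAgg
The 5p strands carry other seeds than the 3p strands. The seed groups below therefore sort genes by their 3p strand, and the counts sorted this way include any 5p reads.

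The genes lie in 2 clusters, both on minus strands of mm10. On chromosome 4 the order of transcription is Mir200b (156055681 to 156055750), Mir200a (156054896 to 156054985) and Mir429 (156053905 to 156053987), with 695 bases between the first pair and 908 between the second. In GENCODE M21 all 3 lie in introns of the protein-coding gene Ttll10 on the same strand and inside the processed transcript Gm13648, of which an exon overlaps Mir429. On chromosome 6 Mir200c (124718322 to 124718390) precedes Mir141 (124717914 to 124717985) by 336 bases. Both lie in an intron of Gm15884, annotated as an antisense transcript, and an exon of the unclassified transcript Gm29008 overlaps Mir141. All counts of the 5 genes were on the sense strand, with 0 opposite-strand counts in either library.

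The 3 genes of the miR-200b, miR-200c and miR-429 seed group were the 3 highest members. Levels are given as CPM, sense counts scaled to the summed sense counts of all miRNA genes of the library. Since the mature 3p strands have 22 or 23 bases, a count stands for about the same length in each member. Mir429, the most abundant, had 110755 counts or 18494 CPM in replicate 1 and 126637 counts or 18970 CPM in replicate 2. Mir200c had 83672 counts or 13972 CPM in replicate 1 and 96348 counts or 14433 CPM in replicate 2. Mir200b had 46891 counts or 7830 CPM in replicate 1 and 45102 counts or 6756 CPM in replicate 2. The libraries of each of these genes lay close together and did not overlap with those of the next gene in the order. In CPM Mir200b varied most, with a coefficient of variation of 10.4% over the 2 pools, against 1.80% for Mir429 and 2.30% for Mir200c. With the other scalings given below, Mir429 and Mir200c differed more between the pools than Mir200b did.

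The genes of the other seed group stood well below. Mir141 had 11633 counts or 1942 CPM in replicate 1 and 12617 counts or 1890 CPM in replicate 2. Mir200a had 7566 counts or 1263 CPM in replicate 1 and 7598 counts or 1138 CPM in replicate 2. Both libraries of Mir141 lay above both libraries of Mir200a and below all libraries of Mir200b. The coefficient of variation was 1.94% for Mir141 and 7.37% for Mir200a. The order Mir429, Mir200c, Mir200b, Mir141, Mir200a was thus the same in both pools. It follows neither the clusters nor the order of transcription: the gene transcribed last was the highest on chromosome 4 and the lowest on chromosome 6.

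**Figure D1:**
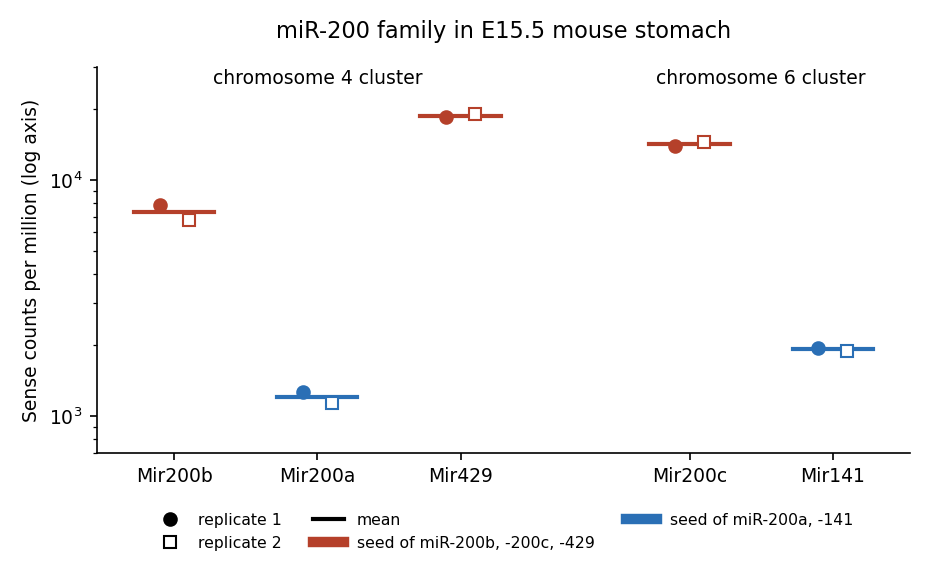
CPM of each member in replicate 1 (filled circle) and replicate 2 (open square) with their mean (line), on a log axis, in order of transcription within each cluster and coloured by seed group. In each cluster the gene with the seed of miR-200a and miR-141 is the lowest, at a mean of 1201 CPM for Mir200a and 1916 CPM for Mir141.

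Together the 5 genes held 4.33% ± 0.0222 of sense counts (SD, n = 2). Mir429 alone made up 42.5% of the family (42.3 to 42.7) in replicate 1 and 43.9% (43.7 to 44.1) in replicate 2, with 95% Wilson intervals. Mir200c made up 32.1% and 33.4%, Mir200b 18.0% and 15.6%, Mir141 4.47% and 4.38%, and Mir200a 2.90% and 2.64%, each in replicate 1 and replicate 2. These intervals cover counting error only, since reads without molecular identifiers are not independent molecules. The shares of Mir429, Mir200c, Mir200b and Mir200a differed between the pools by more than that error. For Mir200b the interval was 17.9 to 18.1 in replicate 1 and 15.5 to 15.8 in replicate 2. Only for Mir141 did the intervals overlap, at 4.39 to 4.55 in replicate 1 and 4.30 to 4.45 in replicate 2.

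By mean CPM the members ranked 13th (Mir429), 16th (Mir200c), 29th (Mir200b), 68th (Mir141) and 91st (Mir200a) among the 1973 genes. Next above Mir429 was Mir322, a miRNA of a growth-linked cluster on the X chromosome, at 20626 ± 1030 CPM, and the values of these genes did not overlap between the libraries. Next below Mir429 was Mir375, a miRNA of endocrine cells, at 18048 ± 7315 CPM, which lay below Mir429 in replicate 1 and above it in replicate 2. Mir200c stood between Mir23a (14218 ± 683 CPM) and Mir99b (14101 ± 1270 CPM). Mir200b stood between Mir487b (7490 ± 5.02 CPM) and Mir100 (7093 ± 797 CPM). Mir141 stood between Mir15a (1963 ± 176 CPM) and Mir467e (1906 ± 58.1 CPM), and Mir200a between Mir134 (1225 ± 129 CPM) and Mir223 (1180 ± 95.6 CPM), each ± SD over 2 libraries. Except for Mir322, the ranges of these neighbours overlapped that of the member, so the exact ranks are not fixed by these libraries. Reads that match several places were left out of the counts, and neighbours with near-copies in the genome may be ranked too low.

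**Figure D2:**
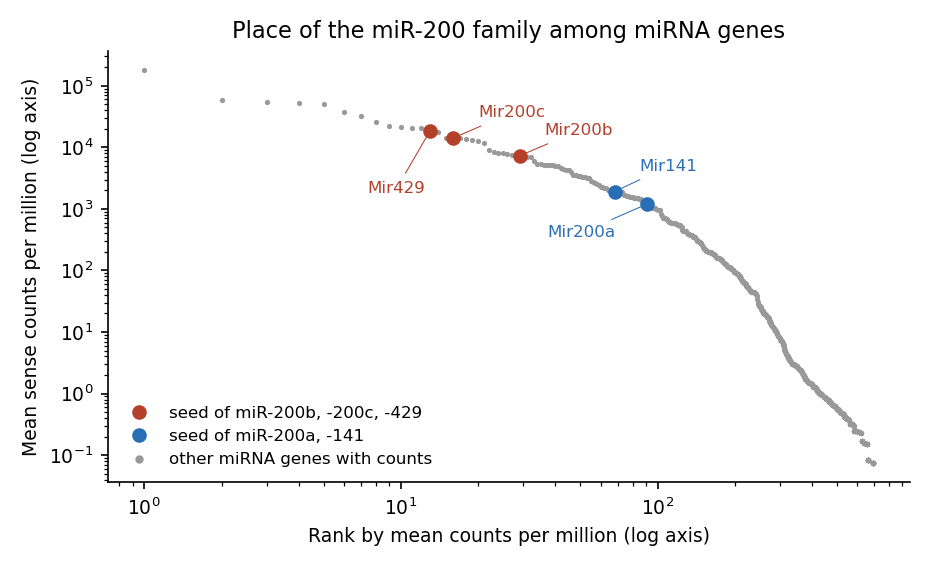
Mean CPM against rank for every miRNA gene with counts, both on log axes, with the 5 members coloured by seed group. The members with the seed of miR-200b, miR-200c and miR-429 lie at ranks 13, 16 and 29, and the other members at ranks 68 and 91.

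The clusters were compared first. The chromosome 4 cluster held 165212 counts in replicate 1 and 179337 in replicate 2, against 95305 and 108965 for the chromosome 6 cluster. This made 63.4% and 62.2% of the family for chromosome 4, against 36.6% and 37.8% for chromosome 6. The log2 ratio of the chromosome 4 over the chromosome 6 cluster was 0.79 in replicate 1 (95% exact Clopper-Pearson interval 0.78 to 0.81) and 0.72 in replicate 2 (0.71 to 0.73), a mean of 0.76 ± 0.05 (SD, n = 2) or 1.69-fold. A ratio inside a library needs no scaling between libraries. The excess rested on Mir429: without it the ratio turned to -0.93, in favour of chromosome 6. Per gene the clusters were close, at 9075 CPM a gene on chromosome 4 and 8059 CPM a gene on chromosome 6, a log2 ratio of 0.17. An exact two-sided sign-flip permutation test over 2 libraries cannot give a p below 0.5, so the ratios are given with their SD and no p.

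The seed groups differed far more than the clusters. Genes with the seed of miR-200b, miR-200c and miR-429 held 241318 counts in replicate 1 and 268087 in replicate 2, against 19199 and 20215 for Mir200a and Mir141 together. They made up 92.6% of the family in replicate 1 and 93.0% in replicate 2, against 7.37% and 7.01% for the other group. The log2 ratio was 3.65 (3.63 to 3.67) in replicate 1 and 3.73 (3.71 to 3.75) in replicate 2, a mean of 3.69 ± 0.05 (SD, n = 2) or 12.9-fold. Per gene it was 3.11, and without Mir429 it was 2.79, so the direction did not rest on that gene.

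The seed contrast stood inside each cluster too, where the genes can share a primary transcript. On chromosome 4, Mir429 and Mir200b together exceeded Mir200a by a log2 ratio of 4.38 in replicate 1 and 4.50 in replicate 2. Singly, Mir429 exceeded Mir200a by a mean of 3.97 and Mir200b by 2.60. On chromosome 6, Mir200c exceeded Mir141 by 2.85 in replicate 1 and 2.93 in replicate 2. Within a seed group the clusters differed less. Mir429 and Mir200b summed exceeded Mir200c by a mean of 0.87 ± 0.06, while Mir200a over Mir141 was -0.68 ± 0.08 (SD, n = 2). The first of these ratios sets a sum of genes against a single gene. Taken singly, Mir200c at a mean of 14202 CPM lay below Mir429 at 18732 CPM and above Mir200b at 7293 CPM. Whether the strands differ in how well they are ligated and amplified was not tested.

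**Figure D3:**
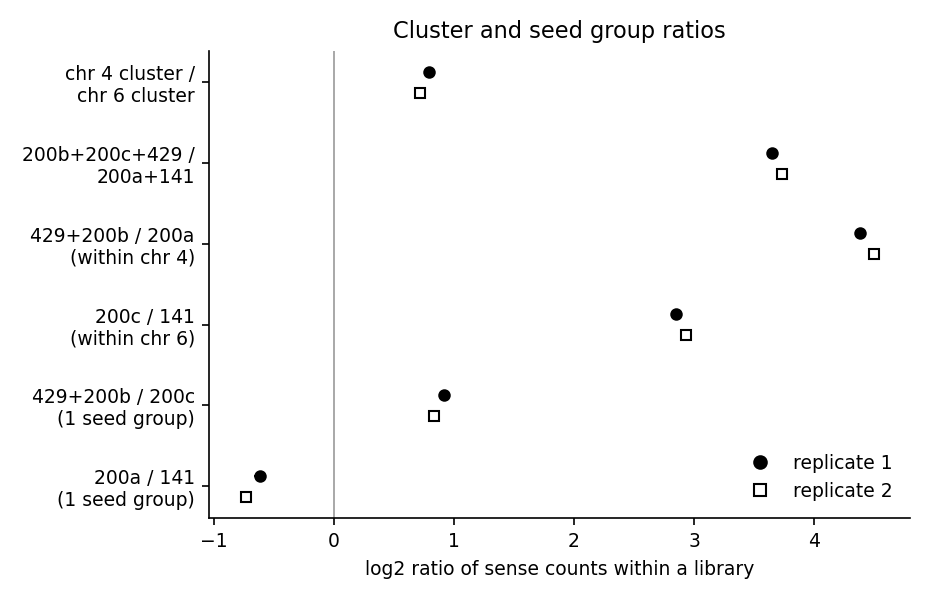
Log2 ratios of sense counts inside replicate 1 (filled circles) and replicate 2 (open squares) for the clusters, the seed groups, the seed groups inside each cluster and the clusters inside each seed group; the 95% exact intervals are narrower than the symbols. The seed group ratios lie between 2.85 and 4.50 and the cluster ratios between -0.73 and 0.91. Counts of a group are summed, and the groups differ in their number of genes.

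All 10 pairs of members differed by more than 2 SD over the pools, with mean log2 ratios from 0.40 for Mir429 over Mir200c to 3.97 for Mir429 over Mir200a. Neighbours in the order were separated by 0.40 ± 0.0072 (Mir429 over Mir200c), 0.97 ± 0.18 (Mir200c over Mir200b), 1.92 ± 0.12 (Mir200b over Mir141) and 0.68 ± 0.08 (Mir141 over Mir200a). An SD over 2 pools is itself uncertain and the order was taken from these same libraries, so this order is a description. How many pairs of other miRNA genes differ by more than 2 SD was not counted.

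The pair ratios shifted between the pools by 0.01 to 0.26 on the log2 scale. Mir429 over Mir200c, genes of different chromosomes with the same seed, had a log2 ratio of 0.40 (0.39 to 0.42) in replicate 1 and 0.39 (0.38 to 0.41) in replicate 2. Mir200b over Mir200a, adjacent genes with different seeds, had 2.63 (2.60 to 2.67) in replicate 1 and 2.57 (2.53 to 2.60) in replicate 2. Those shifts of 0.01 and 0.06 were the smallest of the 10, and next to them came Mir429 over Mir141 with 0.08 and Mir200c over Mir141 with 0.09. The exact intervals of the pools overlapped for 2 of 10 pairs, Mir429 over Mir200c and Mir200b over Mir200a; they cover counting error only and are wider where a gene has fewer counts. For how many pairs of other genes such intervals overlap was not counted. Among the 10 pairs, the ratio that moved most was Mir200c over Mir200b, at 0.84 in replicate 1 and 1.10 in replicate 2. Mir429 over Mir200b, from the same cluster, was 1.24 in replicate 1 and 1.49 in replicate 2.

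Set beside other clusters of miRNA genes, the miR-200 clusters had middling spans. A cluster here is a run of genes on 1 strand with neighbours at most 10000 bases apart, and 59 clusters had a gene with at least 10 counts in both libraries. The span, the highest minus the lowest gene on the log2(CPM + 1) scale, was 3.96 ± 0.13 (SD, n = 2) for the chromosome 4 cluster and 2.89 ± 0.06 for the chromosome 6 cluster. The median over the 59 clusters was 4.23 and the range 0.36 to 13.50. Of these clusters 32 were wider than the one on chromosome 4 and 37 wider than the one on chromosome 6. The spans next to the chromosome 4 cluster were 4.01 from Mir532 to Mir362 and 3.73 from Mir181b-2 to Mir181a-2. Those next to the chromosome 6 cluster were 2.95 from Mir224 to Mir452 and 2.81 from Mir215, an epithelial miRNA of the gut, to Mir194-1. In 37 clusters every gene had at least 10 summed counts, and the median span of these was 3.96, that of the chromosome 4 cluster itself. Of these 37 clusters, 18 were wider than the one on chromosome 4 and 23 wider than the one on chromosome 6. The 22 other clusters hold a gene with under 10 summed counts, while the lowest miR-200 gene, Mir200a, had 15164 counts over both libraries.

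**Figure D4:**
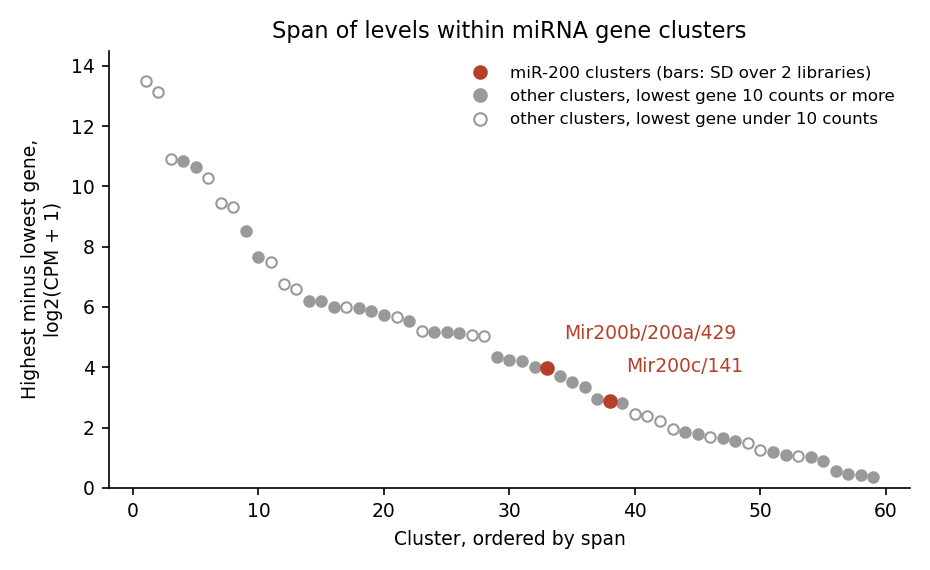
Span of levels in each of 59 miRNA gene clusters, the highest minus the lowest gene on the log2(CPM + 1) scale, ordered from wide to narrow; open symbols mark clusters whose lowest gene had under 10 summed counts. The chromosome 4 cluster at 3.96 and the chromosome 6 cluster at 2.89 (SD bars within the symbols) lie in the middle of the order.

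Between the pools every member stayed within a log2 difference of 0.21. The pools were set against each other gene by gene, over genes reaching 10 counts in sum, with an exact binomial test conditional on that sum (two-sided, p-values adjusted after Benjamini and Hochberg). A call needed an adjusted p under 0.05 and a difference of 2-fold or more. By this rule 0 of 5 members were called, beside 27 of 466 genes tested (5.79%); 5.15% were called as higher in replicate 1 and 0.644% as lower. On the log2(CPM + 1) scale, replicate 1 over replicate 2 was 0.21 for Mir200b (95% exact interval 0.19 to 0.23), 0.15 for Mir200a (0.10 to 0.20), 0.04 for Mir141 (0.0030 to 0.08), -0.04 for Mir429 (-0.05 to -0.03) and -0.05 for Mir200c (-0.06 to -0.03). With no fold limit 4 of 5 members passed, beside 46.4% of all genes tested. These were Mir200b and Mir200a as higher in replicate 1, as were 33.3% of genes tested, and Mir429 and Mir200c as lower, as were 13.1%. Which 4 passed depended on the scaling. With edgeR's TMM factors and with DESeq2 size factors Mir200a no longer passed (adjusted p 0.49 and 0.89 by the exact binomial test) and Mir141 passed as lower in replicate 1 (5.3e-06 and 1.1e-09). Mir141 also passed, as higher, where only genes with at least 100 summed counts were tested (0.049). Mir200b had an adjusted p of 1.4e-109 by the exact binomial test and Mir141 one of 0.070, while all 5 had an unadjusted p under 0.05. edgeR's exact test takes its error from the same pair of libraries that it compares, so differences as small as those of the members have little room to pass. By it 0 of 5 members passed, adjusted (0.858% of genes tested) or at an unadjusted p under 0.05 (31 of 466 genes). Its biological coefficient of variation, shared by all genes, was 0.201 as a fraction of the level. Both tests compare these libraries, not conditions.

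The median size of the difference was 0.05 over the members, against 0.27 over all 466 genes, many of which have far fewer counts. Over the 91 genes with at least the mean CPM of Mir200a, a comparison chosen after seeing the data, it was 0.15. Mir200b was above this value and the other 4 members below it. With TMM factors the median size was 0.09 over the members, against 0.16 over those 91 genes, and with DESeq2 size factors 0.12 against 0.16. Mir429 and Mir200c were then the members above it. The median gene itself stood at 0.11, higher in replicate 1. Relative to it Mir200b was at 0.10, Mir200a at 0.04, Mir141 at -0.07, Mir429 at -0.15 and Mir200c at -0.16. The direction of the smallest differences therefore hung on the scaling. Mir141 turned to -0.09 with edgeR's TMM factors and to -0.12 with DESeq2 size factors, and Mir200a to -0.0061 with DESeq2 size factors. Mir200b stayed higher in replicate 1, and Mir429 and Mir200c lower, under each scaling tried. In bulk tissue a lower level cannot be told apart from fewer cells of the type that makes the miRNA.

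**Figure D5:**
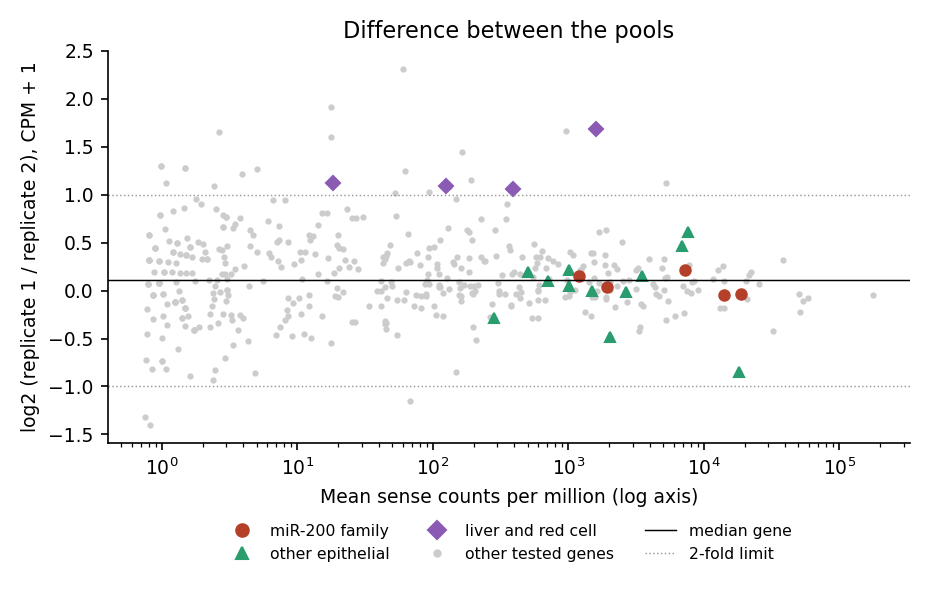
Log2 ratio of replicate 1 over replicate 2 (CPM + 1) against mean CPM (log axis) for 466 tested genes, with the miR-200 family, the other epithelial genes and the liver and red cell genes marked; the line is the median gene and the dotted lines the 2-fold limit. The 5 members lie between -0.05 and 0.21, while Mir375 lies at -0.85 and Mir122 at 1.69.

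Some other epithelial miRNA genes differed more between the same pools than any member did. The list of 12 genes was fixed with earlier results of these data known, and all 12 had at least 10 counts in both libraries. It was fixed as 1 list, without the division into stratified and glandular genes used below. The family came to 43502 CPM in replicate 1 and 43188 CPM in replicate 2, against 43259 and 48291 CPM for the 12 listed genes together. Of these, 7 were higher and 5 lower in replicate 1, beside 295 higher and 171 lower of all 466 genes tested. The 12 genes ranged from -0.85 to 0.62 on the log2 scale. Mir375, Mir203, Mir215, Mir205 and Mir194-1 lay beyond the largest difference of a member, 0.21 for Mir200b, and the other listed genes within it. By the rule with the 2-fold limit 0 of 12 were called, beside 5.79% of all genes tested. The split of the 12 genes turned to 5 higher and 7 lower with TMM factors and to 4 higher and 8 lower with DESeq2 size factors. With the DESeq2 factors Mir375, at -1.01, passed the limit. Of the single genes on that list, 0 were above Mir429 in mean level, Mir375 alone was above Mir200c, and Mir375 and Mir203 were above Mir200b.

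Genes of stratified epithelium, which lines the mouse forestomach, were higher in replicate 1, as were 295 of 466 genes tested. The median gene stood at 0.11 on the log2 scale. Mir203, a miRNA of differentiating keratinocytes, had 9244 CPM in replicate 1 and 6032 CPM in replicate 2, a log2 ratio of 0.62. Mir205, known from basal cells of stratified epithelia, had 7957 CPM and 5774 CPM, a ratio of 0.46, and Mir31 had 536 CPM and 467 CPM, a ratio of 0.20. With TMM factors Mir203 was at 0.49 and with DESeq2 size factors at 0.46. The TMM factors lowered log2 ratios by about 0.13 and the DESeq2 size factors by about 0.16. Most of the 0.20 of Mir31 therefore hung on the scaling. The differences of these genes lay under the 2-fold limit. With no fold limit, and scaled to library totals, Mir203, Mir205 and Mir31 passed the exact binomial test as higher, as did 33.3% of genes tested. That test covers counting error only, and no replicate of either pool was there to test the differences further.

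Of the genes of glandular and endocrine epithelium, Mir375, Mir215 and Mir194-1 were lower in replicate 1, as were 171 of 466 genes tested. Mir192, Mir148a and Mir194-2 lay between -0.0071 and 0.10. Mir375 had 12876 CPM in replicate 1 and 23221 CPM in replicate 2, a log2 ratio of -0.85. Mir215 had 1689 CPM and 2359 CPM, a ratio of -0.48, and Mir194-1, a numbered copy beside it, 257 CPM and 312 CPM, a ratio of -0.28. Mir192, which shares its seed with Mir215, had 1503 CPM and 1511 CPM, a ratio of -0.0071. Mir148a had 1034 and 998 CPM, a ratio of 0.05, and Mir194-2 had 728 and 680 CPM, a ratio of 0.10. The sensory and epithelial cluster of Mir182, Mir183 and Mir96 stood at 3694 and 3326 CPM, 2647 and 2666 CPM, and 1095 and 946 CPM, each in replicate 1 and replicate 2. Their log2 ratios were 0.15, -0.01 and 0.21. With no fold limit Mir182, Mir96 and Mir194-2 passed the exact binomial test as higher in replicate 1, as did 33.3% of genes tested. Mir375, Mir215 and Mir194-1 passed it as lower, as did 13.1%. Against the family's median size of difference of 0.05, that of the 12 genes was 0.20. With TMM factors these values were 0.09 and 0.14, and with DESeq2 size factors 0.12 and 0.17.

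Markers of other cells and organs set the family in its tissue. Against the family's 4.35% of counts in replicate 1 and 4.32% in replicate 2, the 11 genes of smooth muscle and mesenchyme held 19.2% and 19.6%. Most of this was Mir143, with 175503 of the list's 192059 CPM in replicate 1 and 181344 of 195953 CPM in replicate 2. The list's place above the family rested on that gene. Mir126a of vessels held 2.62% and 2.50%. The white blood cell list held 0.137% and 0.121%, led by Mir223, and the neuron list 0.134% and 0.115%, nearly all of it Mir137, with 4 of its 6 counted genes at 0 in both libraries. Those 4 are copies of Mir124a and Mir9, whose reads can match several places and then stay out of the counts, so the 0 does not show absence. The acinar pancreas list held 0.00058% and 0.00037%, led by Mir217 at 19 and 14 counts; 1 of its 3 genes, Mir216a, was called at 11 and 2 counts. Mir122 of liver held 0.244% in replicate 1 and 0.0757% in replicate 2, and the 3 red cell genes, led by Mir451a, 0.0727% and 0.0345%. All 4 liver and red cell genes were called as higher in replicate 1, beside 5.15% of genes tested in that direction, by a test of 1 library against 1 library that covers counting error only. Their part in the small differences of the miR-200 genes was not tested.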

How the data were processed

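Per library, the authors deposited 1 microRNA-seq table of whole-number counts of reads for each miRNA gene, made on mm10 with annotation GENCODE M4, as the deposited description files state. The trimming, aligner and counter were not given in the sources used here. Columns are unnamed, and in every gene row the first count is the sum of the other 2, taken as sense and opposite strand. Sense counts were used. Lines naming no gene (46.4% and 45.5% of reads in replicates 1 and 2; 25.5% and 27.0% matched several places) stayed out of totals and tests. Identifiers, version dropped, were matched to GENCODE M21; 1894 of 1973 matched, and the other 79 held 2 sense counts.

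CPM, ratios, Wilson and Clopper-Pearson intervals (95%) and exact binomial tests came from Python 3.11.15 and scipy 1.17.1; ratios between pools added 1 CPM. edgeR 4.0.16 and DESeq2 1.42.0 (R 4.3.3) gave alternative scalings, and edgeR an exact test with the common dispersion; its quasi-likelihood test needs replicated groups, which 1 group lacks. The binomial test was checked on data simulated with counting error only, so the check does not cover variation between pools. Alternatives covered strand column, denominator, Mir429, scaling, count minimum, fold limit, pseudocount, cluster distance and leaving out each replicate. Sequences are from RefSeq; all 5 members matched. Named besides the members were their neighbours in rank and in cluster span, the other epithelial genes and the highest gene of each marker list; Mir194-2 and Mir181a-2 are numbered copies. Members, lists and tests were chosen with earlier results of these data known. The labels name no batch. They call the libraries biological replicates, and how embryos were divided between pools is not stated there.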

Additional observations from a re-analysis of the deposited data

Results flagged for a closer look

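Reads that matched several places stand outside the gene counts and numbered 2946663 in replicate 1 and 3406967 in replicate 2. Each full miR-200 3p strand occurs in 1 hairpin of the RefSeq table, and how many of these reads came from the family was not tested.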

How the results depend on the processing

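The cluster ratio of 0.76 turned to -0.93 without Mir429 and became 0.17 as mean CPM per gene; the seed group ratio of 3.69 became 2.79 without Mir429 and 3.11 per gene. Without either replicate these ratios were 0.72 to 0.79 and 3.65 to 3.73. The family share of 4.33% became 5.28% without Mir143 in the total, 2.27% of all reads and 4.19% with both strands counted, by construction of the denominator, and was 4.32 to 4.35% without either replicate. Between the pools 27 genes were called, against 216 with no fold limit, 16 with at least 100 summed counts, 13 with pseudocount 5 and 4 by the edgeR exact test, and 22 to 31 under the remaining alternatives. Of the members, Mir141 (0.04) turned to -0.0892 with TMM, to -0.0893 by the edgeR exact test and to -0.12 with DESeq2 size factors, and Mir200a (0.15) to -0.0061 with DESeq2 size factors. The spans of the miR-200 clusters, 3.96 and 2.89, were 3.87 to 4.06 and 2.85 to 2.93 without either replicate, which with 2 libraries are the values of the single libraries. The median span of 4.23 became 3.64 with pseudocount 5 and 3.96 with the longer distance allowed between neighbours; leaving out a replicate gave 4.21 to 4.44. No paired analysis was possible because there is 1 group only. The member with the fewest counts had 7566 in a library, so the number of pools, 2, limits precision more than depth does.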
